A study of Mus musculus with 5 samples.

Results

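The mitochondrial respiratory chain and ATP synthase genes were taken by symbol: every gene in the authors' region lists whose name starts with Nduf, Uqcr, Sdh followed by a, b, c or d, Cox followed by a digit, or Atp5. The rule found 82 of the 17024 symbols that had a listed transcription start, and all 82 matched a RefSeq gene name. By their known roles, 36 belong to complex I, 6 to complex II, 6 to complex III, 21 to complex IV and 12 carry an Atp5 name and stand under complex V. Ndufa4 and Ndufa4l2 were placed with complex IV, where the Ndufa4 protein is found. The last gene, Cox4nb (RefSeq Emc8), meets the name rule but encodes a subunit of an endoplasmic reticulum membrane complex. It is the head-to-head neighbour of Cox4i1 and shares its H3K4me3 region.

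The cells were dendritic cells grown from the marrow of C57BL/6 female mice, 10 weeks old, with GM-CSF and IL-4 (10 ng/mL each) for 7 days and selected for CD11c to 95% purity, per the labels. They were kept for 12 hours in serum-free medium with SAHA (vorinostat, an inhibitor of histone deacetylases, at a dose labelled 500 nm, dissolved in DMSO) or in diluent. Chromatin immunoprecipitation sequencing (ChIP-seq) gave 1 library each of STAT3 in SAHA, STAT3 in diluent, H3K4me3 in SAHA, H3K4me3 in diluent and IgG in diluent. No SAHA library of IgG was used here, so the authors' lists for both conditions stand against IgG of diluent cells. The design asks where STAT3 binds, and which promoters carry H3K4me3, when deacetylases are inhibited.

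Filtered tags (reads left after the peak caller's duplicate filter) numbered 17810183 for STAT3 in SAHA, 25013431 for STAT3 in diluent, 21428355 for H3K4me3 in SAHA, 22420200 for H3K4me3 in diluent and 18925827 for IgG. Each condition had 1 library per antibody, so no difference between SAHA and diluent has a replicate check and none carries a p-value. Every interval given is a 95% interval of counting error alone. All 12 dendritic cell markers examined carried an H3K4me3 region in SAHA and in diluent, as did all 5 macrophage and monocyte markers. Of the scored markers of other cells, a region was present in SAHA at 3 of 3 granulocyte, 1 of 2 T cell, 0 of 3 B cell, 0 of 2 NK cell and 2 of 2 erythroid genes. In diluent the counts were 3, 1, 1, 0 and 2. A marker that no list names could not be scored, so these shares run high. Not scored were Mpo and Ly6g (granulocytes), Cd3e, Cd3g and Cd8a (T cells), and Cd79a and Ms4a1 (B cells). The same holds for Ncr1 (NK cells) and for Gata1, Hba-a1 and Hbb-b1 (erythroid cells). Among these markers H3K4me3 tags were at least 1.5-fold higher in SAHA (all genes, 6.09%) at Ciita (log2 ratio 1.18), Cd86 (0.93), H2-Aa (0.60), Elane (2.11), Cebpe (0.65) and Epor (0.78). The regions of the last 3 did not cover the start. That of Elane lay 1409 bp away (136 tags in SAHA, 33 in diluent), that of Cebpe 1808 bp (190 and 127) and that of Epor 417 bp (236 and 144). Tags were at least 1.5-fold lower (all genes, 1.85%) at Mertk (-0.65). Only 8 of the 12 dendritic cell markers had a ratio. The interval lay above 0 at 6 of them and below 0 at 2, Itgax (-0.38, interval -0.70 to -0.06) and Flt3 (-0.56, interval -0.82 to -0.30). The part of cell composition in the values below was not tested.

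The respiratory chain moves electrons from NADH (complex I) and succinate (complex II) through ubiquinone to complex III, then by cytochrome c to complex IV, which reduces oxygen. The proton gradient built on the way drives ATP synthase, complex V. The nuclear genes for these subunits are active in nearly all cells, and their promoters are classical targets of NRF1, of the ETS factor GABPA and of YY1. H3K4me3, trimethylation of lysine 4 on histone H3, marks the nucleosomes around the starts of active genes. In dendritic cells oxidative phosphorylation is known to be used at rest and to give way to glycolysis upon activation. STAT3, which relays cytokine signals to the nucleus as a transcription factor, has also been described in mitochondria, which ChIP-seq of nuclear genes does not measure.

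Nearly all of these genes carried H3K4me3 in both conditions. A listed region lay within 5 kb of the start of 81 of 82 genes in SAHA and of 82 in diluent. Over all 14157 protein-coding genes with a listed start the shares were 85.2% in SAHA and 84.2% in diluent. A gene has a listed start only if the authors assigned it a region in at least 1 list. Genes without any region are thus missing from both counts, and shares this high follow in part from that rule. In both conditions together the count was 81, against 83.1% of all genes. The exception was Cox4i2, the lung and hypoxia isoform of the complex IV subunit Cox4. Its diluent region (mm9 chr2:152578143-152578714) lay 1195 bp from the start, held 25 tags and had a score of 83.18, and no region was listed for it in SAHA. No gene of the set had an IgG region within 5 kb, against 0.275% of all genes.

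Regions were paired where 1 SAHA and 1 diluent region overlapped each other and no other, which 80 of the 82 genes had. Of these, 79 pairs lay over the start itself (all genes, 94.0%). The region without a pair, besides that of Cox4i2, belonged to Atp5g1, which encodes the membrane ring subunit c of ATP synthase. It was called as 2 regions of 869 and 190 tags in SAHA and as 1 region of 1213 tags in diluent. Summed, Atp5g1 had a log2 tag ratio, SAHA over diluent, of -0.13 (interval -0.25 to -0.01).

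H3K4me3 stood at a narrow range of levels, with 3 isoform genes far below the rest. On the scale of tags per kb of region and per 1000000 filtered tags (scaled tags per kb), the median level was 19.7 in SAHA and 22.9 in diluent for the 80 genes, against 15.5 in SAHA and 17.0 in diluent for the 10783 genes with a pair. On that scale the densest regions were those of Ndufb8, an accessory subunit of complex I, with 28.6 in SAHA and 26.2 in diluent, and Atp5b, the catalytic beta subunit of ATP synthase, with 26.3 in SAHA and 33.9 in diluent. The sparsest were Ndufa4l2 with 3.09 in SAHA and 2.62 in diluent, Cox6b2 with 5.23 and 3.64, and Cox7a1 with 5.80 and 8.55, each in the same order. Of the others, the lowest in SAHA was Ndufaf4, an assembly factor, with 12.2 in SAHA and 14 in diluent, and the lowest in diluent was Ndufab1, the mitochondrial acyl carrier protein, with 12.9 in SAHA and 11.1 in diluent. The isoform genes thus stood below every ubiquitous subunit with a pair in both libraries. The strongest point of the mark (summit) lay a median of 233.5 bp downstream of the start in SAHA and 207.5 bp in diluent.

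**Figure D1:**
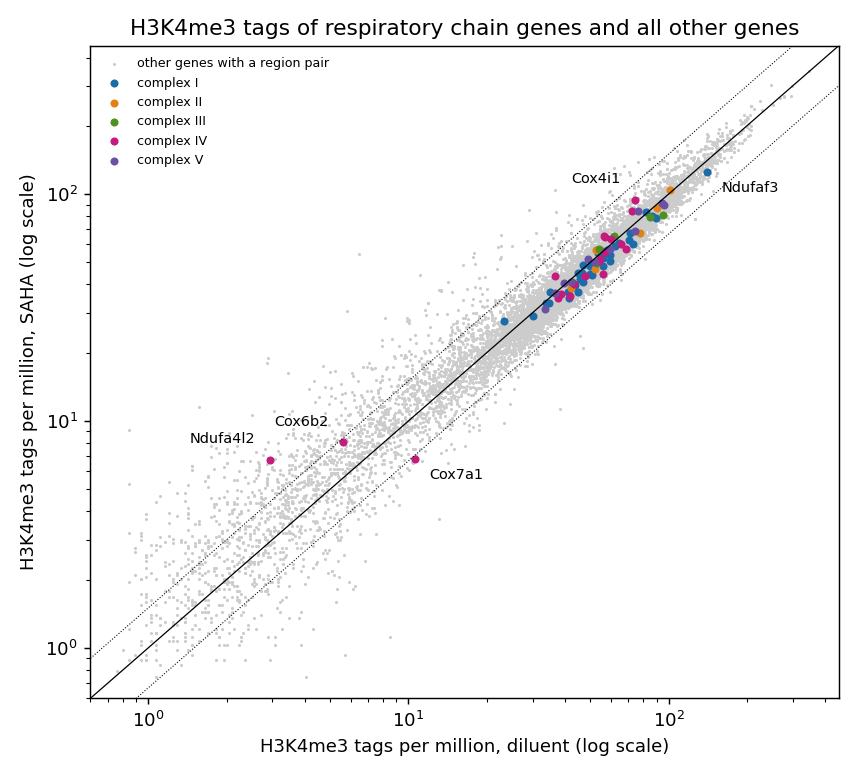
H3K4me3 tags per 1000000 filtered tags in SAHA (vertical axis, log scale) against diluent (horizontal axis, log scale) for each gene with a region pair; grey points are other genes, coloured points the respiratory chain genes by complex, without Cox4nb, whose region is that of Cox4i1. The solid line marks equal values and the dotted lines a 1.5-fold difference: Ndufa4l2 lies above the upper line, Cox7a1 below the lower one and all other coloured points between them.

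Between SAHA and diluent the set moved little. Total tags per region had a median of 1084.5 in SAHA and 1198.5 in diluent, and the median log2 ratio of scaled tags was -0.07, against -0.05 for all genes with a pair. The ratios were also packed closely: the middle 50% ran from -0.14 to 0.03, a span of 0.17, while that of all genes ran from -0.17 to 0.12, a span of 0.29. Regions of the set held more tags, which lowers counting error. In diluent the median was 1198.5 tags against 958 for all genes, and the lower quartile 964.5 against 508.5. The part of tag number in the narrower span was not tested. Genes for cytosolic ribosomal proteins (75 with a pair) had a median of -0.09 and a span of 0.13, and those for mitochondrial ribosomal proteins (66) a median of -0.09 and a span of 0.16. Among the 80 genes, 23 were higher (all genes, 41.4%) and 57 lower (71.2%; all genes, 58.6%) in SAHA; centred on the median of all genes, 29 were higher and 51 lower (63.8%), and all genes divide evenly by construction. The interval lay wholly above 0 for 10 (12.5%; all genes, 20.5%) and wholly below 0 for 26 (32.5%; all genes, 31.3%).

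Past 1.5-fold there was 1 gene in each direction, both of them tissue isoforms with few tags. Ndufa4l2 was higher, against 6.09% of all genes, and Cox7a1 lower, against 1.85% of all genes. Per kb of region no gene was past 1.5-fold, higher (all genes, 2.83%) or lower (all genes, 1.49%).

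**Figure D2:**
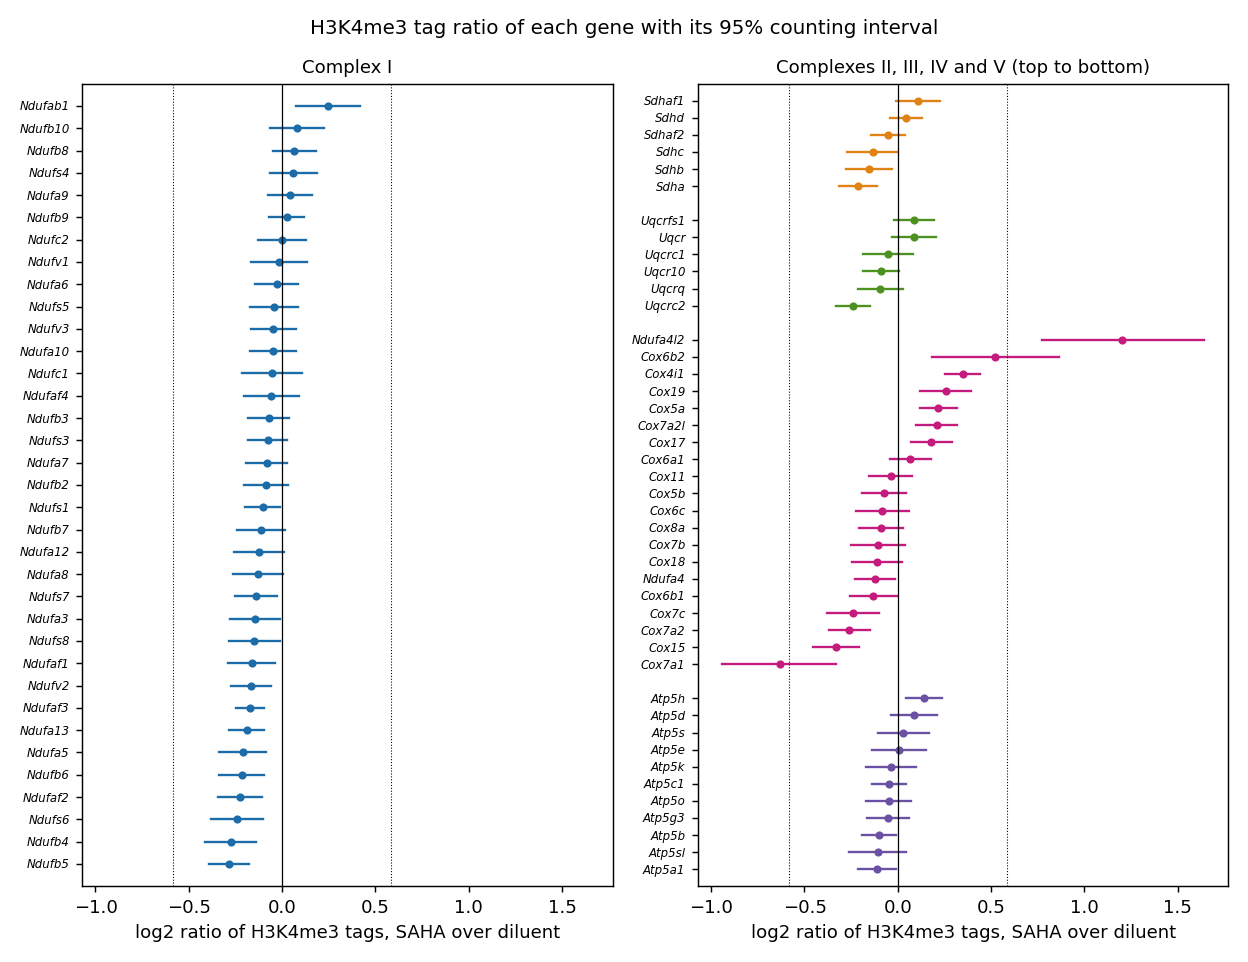
Log2 ratio of H3K4me3 tags, SAHA over diluent, for the subunit and assembly genes described here (horizontal axis); points are the ratios, lines the 95% counting intervals, dotted lines 1.5-fold. Most points of complex I lie below 0, and the widest spread is in complex IV, between Ndufa4l2 at 1.20 and Cox7a1 at -0.63.

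Complex I oxidises NADH. Its H3K4me3 was lower in SAHA at 30 of 36 genes (83.3%; all genes, 58.6%), and at 26 when centred on the median of all genes. The median log2 ratio was -0.10, and the interval lay below 0 at 15 (41.7%; all genes, 31.3%) and above 0 at 1 (2.78%; all genes, 20.5%). Ribosomal protein genes were much alike, with 80% of the cytosolic and 78.8% of the mitochondrial ones lower. Their intervals lay below 0 at 37.3% and 40.9%, and above 0 at 6.67% and 7.58%, in that order. The core subunits of complex I measured here hold the flavin and the iron-sulphur clusters. All 7 had ratios below 0 (6 of 7 when centred on all genes or scaled to total reads), and 5 of their intervals lay below 0. Ndufv2, an iron-sulphur subunit, had 1343 tags in SAHA and 1577 in diluent (-0.17, interval -0.27 to -0.06). By contrast Ndufv1, which binds NADH and flavin, had 713 in SAHA and 755 in diluent (-0.02, interval -0.17 to 0.13), so that its interval spans 0.

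All 4 complex I assembly factors had ratios below 0 under every scaling tried. Ndufaf2 had 1090 tags in SAHA and 1334 in diluent (-0.23, interval -0.34 to -0.11). Ndufaf3 carried the most tags of the whole set, 2673 in SAHA and 3146 in diluent (-0.17, interval -0.24 to -0.09), over a region of 5330 bp in SAHA and 5293 bp in diluent that also covers Dalrd3 and Mir191. Per kb, Ndufaf3 was no outlier, with 23.4 scaled tags per kb in SAHA and 26.5 in diluent. Ndufaf4 had 712 in SAHA and 775 in diluent (-0.06, interval -0.21 to 0.09).

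Of the 25 accessory subunits of complex I, 19 were lower and 6 higher in SAHA (16 and 9 when centred on all genes). The lowest ratios were at Ndufb5 (1287 tags in SAHA, 1639 in diluent; -0.28, interval -0.39 to -0.18), whose region also covers the mitochondrial ribosomal gene Mrpl47, at Ndufb4 (796 in SAHA, 1008 in diluent; -0.28, interval -0.41 to -0.14) and at Ndufs6 (748 in SAHA, 925 in diluent; -0.24, interval -0.38 to -0.10). Ndufab1 was the only complex I gene with an interval above 0: it had 591 tags in SAHA and 521 in diluent (0.25, interval 0.07 to 0.42). The next 2, Ndufb10 (0.08, interval -0.07 to 0.22) and Ndufb8 (0.07, interval -0.05 to 0.18), had intervals that span 0.

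Complex II, succinate dehydrogenase, is the one complex shared with the tricarboxylic acid cycle. Sdha, its flavoprotein, had 1439 tags in SAHA and 1746 in diluent (-0.21, interval -0.32 to -0.11), and Sdhb, its iron-sulphur subunit, had 1007 in SAHA and 1172 in diluent (-0.15, interval -0.28 to -0.03). The membrane anchor Sdhd did not follow them, with 2236 in SAHA and 2267 in diluent (0.05, interval -0.04 to 0.13). The other anchor, Sdhc, had 825 in SAHA and 947 in diluent (-0.13, interval -0.27 to 0.00). The assembly factors Sdhaf1 (0.11) and Sdhaf2 (-0.05) had intervals that span 0.

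Complex III passes electrons to cytochrome c. Uqcrc2, a core protein of its matrix arm, had 1726 tags in SAHA and 2132 in diluent (-0.24, interval -0.33 to -0.15). The other 5 genes had intervals that span 0, between Uqcrq at -0.09 and Uqcrfs1, the Rieske iron-sulphur protein, at 0.09. Of the 6 genes, 2 were higher and 4 lower in SAHA (all genes, 58.6% lower).

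Complex IV, cytochrome c oxidase, varied most of the 5 complexes. In SAHA 8 genes were higher (all genes, 41.4%) and 12 lower (60%; all genes, 58.6%). The interval lay above 0 at 7 (35%; all genes, 20.5%) and below 0 at 6 (30%; all genes, 31.3%). The span of the middle 50% was 0.33, against 0.13 for complex I and 0.29 for all genes with a pair. Complex IV also holds the 3 isoform genes with few tags that had a pair. Among ubiquitous subunits Cox4i1 had 2029 tags in SAHA and 1669 in diluent (0.35, interval 0.25 to 0.44), but its region was also longer in SAHA, and per kb the ratio was -0.31. Cox5a had 1797 in SAHA and 1617 in diluent (0.22, interval 0.12 to 0.32), and per kb -0.02. The called regions of both genes were longer in SAHA, and tags per kb of the called region were not higher. A value per kb averages over the whole region, so it cannot show whether density changed within the part called in both conditions.

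Below them, Cox7a2, the ubiquitous isoform of subunit 7a, had 1233 tags in SAHA and 1544 in diluent (-0.26, interval -0.37 to -0.15), and Cox7c had 759 in SAHA and 938 in diluent (-0.24, interval -0.38 to -0.10). The assembly genes went both ways. Cox15, needed to make haem a, had 952 in SAHA and 1252 in diluent (-0.33, interval -0.45 to -0.21), whereas 3 others had intervals above 0. The copper chaperone Cox17 had 1386 in SAHA and 1281 in diluent (0.18, interval 0.07 to 0.29), and Cox19, which works in the same copper pathway, had 936 in SAHA and 819 in diluent (0.26, interval 0.12 to 0.39). Cox7a2l, which links complexes III and IV into supercomplexes, had 1397 in SAHA and 1265 in diluent (0.21, interval 0.10 to 0.32). Per kb, Cox17 and Cox7a2l turned to -0.11 and -0.13, and Cox19 stayed at 0.07.

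The tissue isoforms of complex IV held few tags. Ndufa4l2, a hypoxia-induced paralogue of Ndufa4, had 145 tags in SAHA and 66 in diluent (1.20, interval 0.77 to 1.64). Its region lay upstream of the start in both libraries, between 3470 and 1280 bp before it in SAHA and between 3531 and 2410 bp before it in diluent, so the start itself was not covered. Per kb, its ratio was 0.24. Cox6b2, the testis isoform of subunit 6b, had 173 in SAHA and 126 in diluent (0.52, interval 0.18 to 0.87) over 1543 bp in both. Cox7a1, the heart and skeletal muscle isoform of subunit 7a, had 146 in SAHA and 237 in diluent (-0.63, interval -0.94 to -0.33; per kb -0.56). These intervals are wider than those of the ubiquitous genes, whose half-widths are near the set's median of 0.12.

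The isoform pair Cox7a1 and Cox7a2 is shown by its promoter sequence, because their H3K4me3 levels lie far apart (5.80 against 22.0 scaled tags per kb in SAHA, and 8.55 against 28.1 in diluent). Both stretches are the 150 bases before the RefSeq start on GRCm38.p6, 5′ to 3′, at chr7:30184021-30184170, plus strand, and chr9:79759854-79760003, minus strand. Capitals mark CG dinucleotides, which are dense in the promoters of most broadly expressed genes, and of which the whole 300-base window holds 7 for Cox7a1 and 20 for Cox7a2.
Cox7a1: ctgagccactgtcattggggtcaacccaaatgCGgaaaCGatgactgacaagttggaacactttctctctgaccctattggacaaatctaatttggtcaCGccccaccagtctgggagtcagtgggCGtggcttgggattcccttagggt
Cox7a2: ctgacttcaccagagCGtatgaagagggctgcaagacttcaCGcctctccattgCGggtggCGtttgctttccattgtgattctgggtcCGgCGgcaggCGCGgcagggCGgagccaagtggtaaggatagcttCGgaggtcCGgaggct

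Across the 73 windows of the 68 genes that matched the RefSeq promoter table, the count of CG dinucleotides had a median of 20 (lowest 5, highest 44), against a median of 20 over the 10970 windows of genes with an H3K4me3 pair and 18 over all 14111 windows. The highest, 44, was at Sdhaf2. The lowest, 5, was at Cox7b, whose region held 13.1 scaled tags per kb in SAHA and 15.1 in diluent. Ndufc2, with 8, held 17.1 in SAHA and 18.5 in diluent. A low count thus did not always go with a level as low as that of Cox7a1. Each window spans 250 bases before to 50 after a start. Atp5a1, Cox4i1, Ndufa4l2 and Uqcrc2 were among the genes that had no entry.

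Complex V uses the proton gradient to make ATP. Its genes were the least spread of the 5 complexes, with 4 higher and 7 lower in SAHA (all genes, 58.6% lower) and ratios from -0.11 to 0.14. Atp5a1 and Atp5b, the alpha and beta subunits of the catalytic head, had 1475 tags in SAHA and 1665 in diluent (-0.11, interval -0.21 to -0.01), and 1916 in SAHA and 2148 in diluent (-0.10, interval -0.19 to -0.01). Atp5h, subunit d of the peripheral stalk, was the only one with an interval above 0, with 1808 in SAHA and 1715 in diluent (0.14, interval 0.05 to 0.24), and its region also covers Kctd2. The other 2 genes of the group carry Atp5 names but encode no subunit: Atp5s (RefSeq Dmac2l, 0.03) and Atp5sl (Dmac2, -0.11) had intervals that span 0.

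H3K4me3 regions were a little longer in SAHA, as over all genes. The median length was 2598.5 bp in SAHA and 2416.5 bp in diluent, and the median difference was 176.5 bp. The median log2 length ratio was 0.09, against 0.08 for all genes, and 56 of 80 genes were longer (70%; all genes, 72.5%), 23 shorter (all genes, 27.4%) and 1 equal. Past 1.5-fold, 3 genes were longer (all genes, 2.51%) and 0 shorter (all genes, 0.621%). They were Ndufa4l2, with 2191 bp in SAHA and 1122 bp in diluent, and the neighbours Cox4i1 and Cox4nb, whose 1 shared region was counted for each, with 5463 bp in SAHA and 3472 bp in diluent.

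Where the added length lay differed between genes. Seen from Cox4i1 (mm9 chr8:123188001-123193463 in SAHA, chr8:123190027-123193498 in diluent), the region began 4244 bp before the start in SAHA and 2218 bp before it in diluent, and its downstream end hardly moved, at 1218 bp in SAHA and 1253 bp in diluent. The gain therefore lay over the body of Cox4nb. Sdhaf2 gained on both sides: it had 4872 bp in SAHA and 3443 bp in diluent, from 2253 bp before to 2618 bp after the start in SAHA and from 1792 bp before to 1650 bp after it in diluent. Sdhd had 4413 bp in SAHA and 3393 bp in diluent, from 1515 bp before to 2897 bp after the start in SAHA and from 1416 bp before to 1976 bp after it in diluent. Cox5a, the longest in diluent among complex IV genes, had 5367 bp in SAHA and 4559 bp in diluent, reaching 4483 bp past the start in SAHA and 3606 bp in diluent. At these 4 genes tags per kb were lower in SAHA, with log2 ratios of -0.31 for Cox4i1, -0.56 for Sdhaf2, -0.33 for Sdhd and -0.02 for Cox5a. Over the set the median per kb was -0.17, against -0.13 for all genes.

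**Figure D3:**
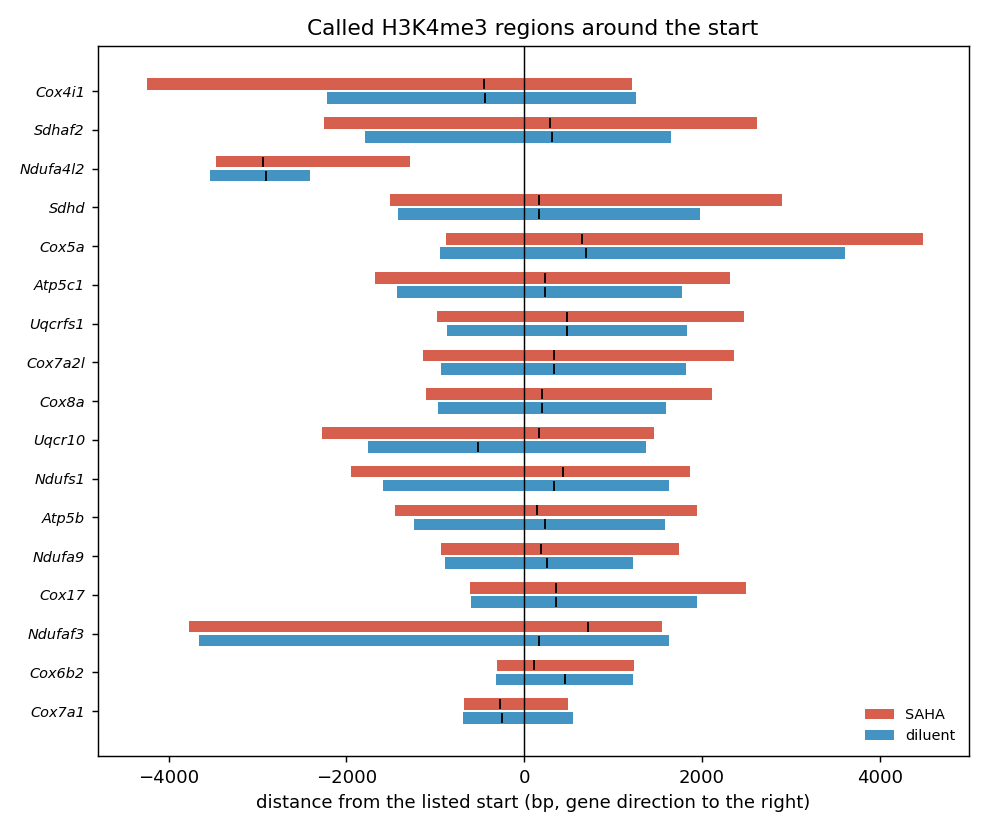
Extent of the called H3K4me3 region around the listed start (horizontal axis, bp, gene direction to the right) in SAHA (upper bar) and diluent (lower bar) for the 14 genes with the largest difference in length, and for Ndufaf3, Cox6b2 and Cox7a1; black ticks are summits. The SAHA region of Cox4i1 begins 4244 bp upstream, against 2218 bp in diluent, and Ndufa4l2 has its region wholly upstream of the start.

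Many of these genes are paired head to head with a neighbour, so 1 region serves both starts. In the RefSeq table (GRCm38.p6), 17 of 68 genes (25%) had a protein-coding gene on the other strand starting within 1 kb upstream, against 9.37% of all 11139 genes. The neighbours include genes of mitochondrial function, Mrpl47 beside Ndufb5 and Timm8b beside Sdhd, and the cytosolic ribosomal gene Rps28, 10 bp from Ndufa7. Cutc starts 23 bp from Cox15, and Ccdc127 77 bp from Sdha. The 17 paired genes had longer regions, with a median of 3004 bp in SAHA and 2977 bp in diluent, than the 50 others with a region pair, with 2228 bp in SAHA and 2167 bp in diluent. Their median log2 tag ratio was -0.09, against -0.05 for the others. A tag in a shared region cannot be told apart by gene.

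STAT3 regions lay near more of these genes in SAHA than in diluent, as over all genes. A listed STAT3 region lay within 5 kb of the start of 16 of 82 genes in SAHA (19.5%; all genes, 18.3%) and of 5 in diluent (6.10%; all genes, 6.39%). Ndufa7 was the 1 gene with a region in both, against 1.83% of all genes. Each share is near that of all genes, so the number of genes with STAT3 does not set this group apart. By complex, the SAHA and diluent counts were 11 and 3 for complex I, 0 and 0 for complex II, 1 and 1 for complex III, 3 and 1 for complex IV, and 1 and 0 for complex V. The SAHA list held 8552 regions and the diluent list 3507.

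The STAT3 regions of SAHA lay mostly on the start. The start itself was covered at 12 of the 16 genes (75%), against 31.4% of the 2594 genes with a SAHA region within 5 kb. Among genes that also had H3K4me3 over the start in SAHA, the share was 12 of 16 here and 34.5% of 2291 genes. In diluent a region covered the start at 1 of 5, against 24.7% of 904 genes. These shares compare 1 library with itself and carry no test. Further, 15 of the 17 SAHA regions and 4 of the 5 diluent regions near respiratory chain genes overlapped an H3K4me3 region of the same condition. The share over all STAT3 regions was not counted. As 81 of 82 genes of the set had an H3K4me3 region in SAHA and 82 in diluent, these counts do not set the group apart. No STAT3 region of the set lay over an IgG region. Over all genes, leaving out such regions moved the number with STAT3 from 2594 to 2593 in SAHA and left 904 in diluent.

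The 2 highest SAHA scores fell on complex IV genes. Cox7a2l had a region of 994 bp (mm9 chr17:83913059-83914052) with a score of 82.66, in percentile 99.1 of the SAHA list, from 379 bp before to 614 bp after the start. Cox7a2 had a region of 1499 bp (chr9:79606800-79608298) with a score of 72.71, in percentile 98.2, from 638 bp before to 860 bp after. Neither gene had a diluent region within 5 kb, and their H3K4me3 went in opposite directions, 0.21 for Cox7a2l and -0.26 for Cox7a2. Cox5b, whose protein binds zinc in the complex, had a weaker region over its start (score 35.98).

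In complex I the regions over a start in SAHA were those of Ndufaf4 (score 64.42), Ndufb6 (52.72), Ndufaf3 (51.02), the core subunit Ndufs7 (45.26), Ndufa7 (41.36), Ndufa12 (32.67) and Ndufv3 (31.92). Ndufaf2 had a region that began 34 bp past the start (34.58). The others lay further off: Ndufa10 (2822 bp upstream, 39.61), Ndufb4 (2247 bp upstream, 34.51) and Ndufb10 (4125 bp downstream, 56.59, given by the authors to Snora78). A second region near Ndufaf3, 2388 bp upstream, was given to Dalrd3 (41.63). Thus 7 of the 11 complex I genes with a region had it over the start. Outside complex I, the start was also covered at Uqcrc2 (33.96) and at Atp5d, the delta subunit of the ATP synthase stalk (36.54).

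In diluent the 5 regions had scores from 30.5 to 34.7, while those in SAHA ran from 31.92 to 82.66; the 2 lists come from libraries of different depth, so the scores are not compared further. Ndufa7 had its diluent region over the start (mm9 chr17:33961213-33961820, score 30.5), and it overlapped the SAHA region (chr17:33960999-33961778), which the authors gave to the neighbour Rps28. Ndufa3 had a region ending 10 bp before the start (32.13), and Cox7b one beginning 26 bp after it (34.04). Ndufs3 had one 238 bp downstream (34.7), and Uqcr10 one 1805 bp upstream, given to Zmat5 (31.35). When each library was called without a control, 2 of the SAHA regions, at Cox7a2l and Uqcrc2, and 1 diluent region, at Ndufa3, were found again. A further 9 SAHA and 5 diluent regions that the authors assigned to genes of the set lay beyond 5 kb, at 5011 to 38687 bp in SAHA and 13812 to 57950 bp in diluent. The nearest of them, at 5011 bp, belonged to Cox8a, and the farthest counted within the limit was that of Ndufb10.

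**Figure D4:**
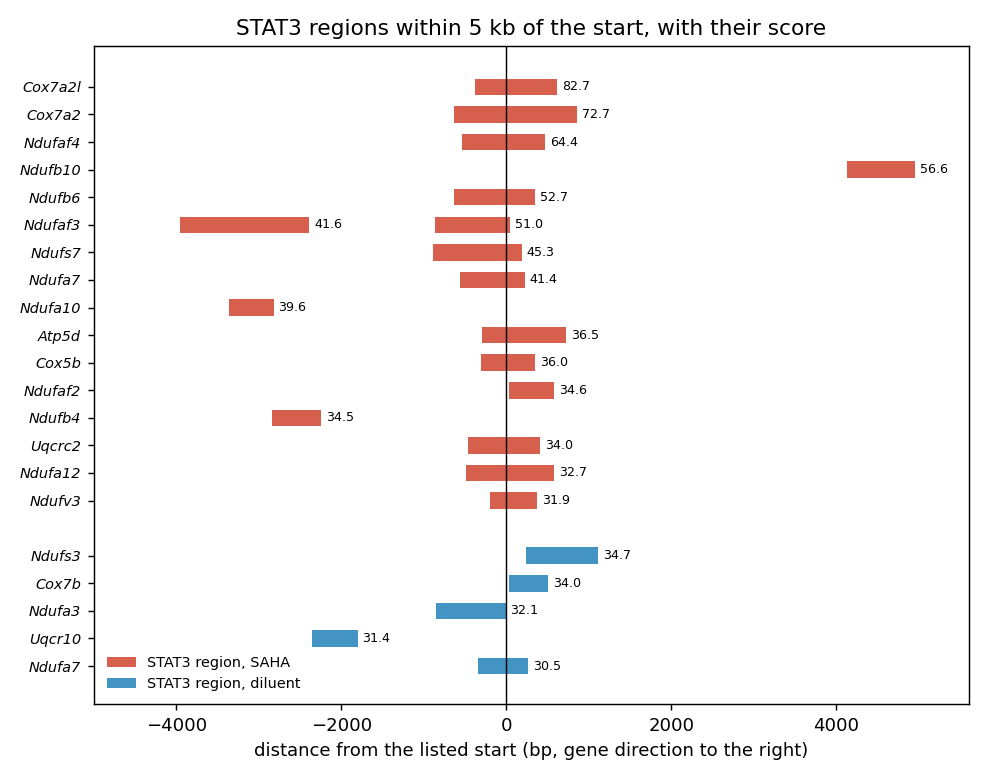
STAT3 regions within 5 kb of the listed start (horizontal axis, bp, gene direction to the right) in SAHA (upper rows) and diluent (lower rows), each with its score from the authors' list. Of the 16 genes in SAHA 12 have a region over the start, at 0, and of the 5 in diluent 1 has.

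At the 16 genes with STAT3 in SAHA, H3K4me3 tags were higher in SAHA at 3 and lower at 13 (all genes, 58.6% lower). The interval lay above 0 at 1 (all genes, 20.5%) and below 0 at 7 (all genes, 31.3%). The 3 higher ones were Cox7a2l (0.21, interval 0.10 to 0.32), Atp5d (0.09) and Ndufb10 (0.08), of which the last pair had intervals that span 0, and the lowest ratios were at Ndufb4 (-0.28), Cox7a2 (-0.26) and Uqcrc2 (-0.24). None was past 1.5-fold (all genes, 6.09% higher and 1.85% lower). The whole set was lower at 71.2% of its genes, and complex I, which holds 11 of these 16 genes, at 83.3%. A link between STAT3 and the ratios was not tested.

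The promoter windows were searched for the letters TTCNNNGAA, the core of the STAT binding site, which reads the same on both strands. It was found in 5 of 73 windows of the set (6.85%), belonging to 4 genes, and in 6.93% of all windows. Its stricter form TTCCNGGAA, a subset of it, was in 1 window (1.37%; all windows, 1.18%). Of the 4 genes, Atp5d and Ndufb6 had a STAT3 region over the start in SAHA, and Ndufa8 and Atp5o had none within 5 kb in either condition. Over all genes in the table, a match was present at 9.01% of 677 genes with a SAHA STAT3 region over the start and at 8.31% of the 10462 others. A match is a description of the letters and not evidence of binding.

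The 4 promoters with the STAT letters are shown as the 250 bases before the RefSeq start on GRCm38.p6, 5′ to 3′, with the match in capitals, the first pair with a SAHA STAT3 region and the others without. The stretches lie at chr10:80142025-80142274, plus strand (1 of its 2 RefSeq windows), chr4:40279422-40279671, minus strand, chr2:36049339-36049588, minus strand and chr16:91931631-91931880, minus strand. The match begins 75 bases before the start in Atp5d, 205 and 57 bases before it in Ndufb6, 223 and 78 in Ndufa8, where the nearer one has the stricter form, and 24 in Atp5o.
Atp5d: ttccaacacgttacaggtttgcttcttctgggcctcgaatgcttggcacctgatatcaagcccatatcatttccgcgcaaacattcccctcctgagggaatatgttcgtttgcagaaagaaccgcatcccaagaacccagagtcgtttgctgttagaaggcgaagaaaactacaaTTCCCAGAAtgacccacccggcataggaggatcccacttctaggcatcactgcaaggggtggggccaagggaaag
Ndufb6: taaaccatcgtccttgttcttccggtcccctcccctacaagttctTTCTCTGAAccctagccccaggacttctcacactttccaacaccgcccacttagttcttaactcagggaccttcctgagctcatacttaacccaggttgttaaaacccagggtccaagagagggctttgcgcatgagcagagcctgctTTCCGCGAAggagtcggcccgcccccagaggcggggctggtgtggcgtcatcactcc
Ndufa8: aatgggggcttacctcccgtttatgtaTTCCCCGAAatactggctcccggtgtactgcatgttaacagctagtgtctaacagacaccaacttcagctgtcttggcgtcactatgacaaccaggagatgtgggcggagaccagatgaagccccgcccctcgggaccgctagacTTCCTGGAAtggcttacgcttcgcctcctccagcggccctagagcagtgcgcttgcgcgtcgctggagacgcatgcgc
Atp5o: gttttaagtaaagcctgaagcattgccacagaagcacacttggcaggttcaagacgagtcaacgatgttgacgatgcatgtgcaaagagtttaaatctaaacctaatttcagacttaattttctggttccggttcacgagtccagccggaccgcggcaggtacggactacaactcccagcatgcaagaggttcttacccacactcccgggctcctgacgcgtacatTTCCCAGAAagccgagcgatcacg

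The letters of the factors known for respiratory chain promoters were more frequent in the set than in all windows. The NRF1 letters GCGCANGCG were in 19 windows (26.0%; all windows, 11.2%), the ETS letters CCGGAAG in 17 (23.3%; 14.6%) and the YY1 letters AAGATGGCG in 7 (9.59%; 2.37%). The SP1 letters GGGCGG were less frequent, in 33 windows (45.2%; 58.1%). In the 10970 windows of genes with an H3K4me3 pair the shares were 12.7% for NRF1, 16.9% for ETS, 2.85% for YY1 and 61.9% for SP1. Each motif was searched on both strands, and none of these 4 contains another. At least 1 of NRF1, ETS and YY1 was present at 35 of 68 genes, and NRF1 and ETS together at 5. These combinations were not counted over all genes, so the 2 counts cannot be compared. These shares describe the letters and carry no test.

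**Figure D5:**
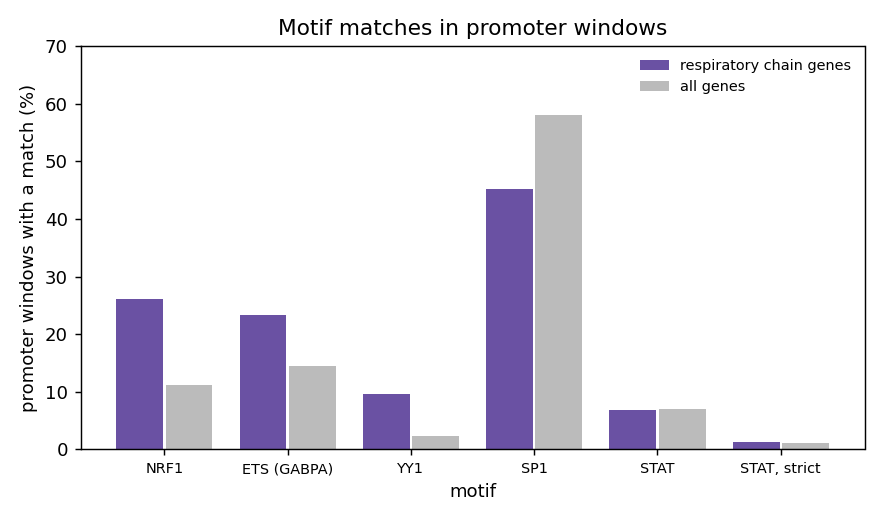
Share of promoter windows (vertical axis, %) with at least 1 match to each motif (horizontal axis), for the 73 windows of respiratory chain genes (left bars) and all 14111 windows (right bars). NRF1, ETS and YY1 letters are at 26.0%, 23.3% and 9.59% in the set, and STAT letters at 6.85%, close to the 6.93% of all windows.

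Sdha and Ndufb4 are shown because each holds 3 NRF1 matches on the strand of the gene. Cox6a1 and Uqcrc1 also hold 3 matches, counted over both strands, and their H3K4me3 ratios (0.07 and -0.05) had intervals that span 0. At Sdha and Ndufb4 the intervals lay below 0. The stretches are the 200 bases before the RefSeq start on GRCm38.p6, 5′ to 3′, at chr13:74350241-74350440, minus strand, and chr16:37654369-37654568, minus strand, with the NRF1 letters in capitals. The matches begin 98, 55 and 10 bases before the start in Sdha and 191, 79 and 22 bases before it in Ndufb4.
Sdha: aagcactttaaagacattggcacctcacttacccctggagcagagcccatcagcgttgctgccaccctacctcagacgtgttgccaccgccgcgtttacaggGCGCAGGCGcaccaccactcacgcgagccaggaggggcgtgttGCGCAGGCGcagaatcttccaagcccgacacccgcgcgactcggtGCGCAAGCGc
Ndufb4: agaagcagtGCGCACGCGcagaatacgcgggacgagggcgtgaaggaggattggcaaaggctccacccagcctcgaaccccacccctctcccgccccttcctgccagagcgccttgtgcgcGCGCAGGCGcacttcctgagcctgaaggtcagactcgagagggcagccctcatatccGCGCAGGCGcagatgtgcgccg

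The H3K4me3 ratio was nearly the same with and without the NRF1 letters. The 18 genes with a match had a median log2 tag ratio of -0.05, and the 49 with a region pair and no match had -0.09. A STAT3 region in SAHA lay near 3 of the 18 genes with NRF1 letters and near 12 of the 50 without. For the ETS letters the counts were 1 of 17 and 14 of 51. Over all genes with a listed start, 18.3% had such a region. These splits rest on few genes, are not given for all genes and were not tested.

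The scored genes of 4 neighbouring pathways, from lists chosen by function, also stayed within 1.5-fold. They were 18 genes for electron carriers and their inputs, 18 assembly factors outside the name rule, 17 tricarboxylic acid cycle genes and 17 regulators of mitochondrial genes. The lists held 19, 24, 17 and 22 names in that order. Not scored, as no region list names them, were Coq4, Surf1, Sco2, Bcs1l, Atpaf2, Atpif1 or Atp5if1, Gabpb2, Tfb1m, Ppargc1a, Mterf1a and Polg2. None of the scored genes was past 1.5-fold in H3K4me3 tags in either direction (all genes, 6.09% higher and 1.85% lower). Their median log2 ratios were -0.14, -0.12, -0.06 and -0.10 in that order, against -0.07 for the respiratory chain set. In the same order the interval lay below 0 at 10, 9, 3 and 7 genes (all genes, 31.3%). It lay above 0 at 2, 1, 3 and 1 (all genes, 20.5%). A STAT3 region lay within 5 kb of 3 genes in SAHA and 2 in diluent among the electron carriers, 5 and 1 among the assembly factors, 4 and 1 in the tricarboxylic acid cycle and 2 and 0 among the regulators, where the shares of all genes are 18.3% in SAHA and 6.39% in diluent.

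Among the electron carriers and inputs the STAT3 regions were at Coq7 and Pdss1 in SAHA, at Coq2 in diluent, and at Coq10b, a ubiquinone-binding protein, in both. Pdss1, which makes the ubiquinone tail, had 1411 H3K4me3 tags in SAHA and 1873 in diluent (-0.34, interval -0.44 to -0.24), and Coq7 had 683 in SAHA and 865 in diluent (-0.28, interval -0.42 to -0.13). Among assembly factors the SAHA regions were at Sco1, Taco1, Tmem126b, Oxa1l and Immt, and the diluent region at Ttc19. In the cycle they were at Dlst, Suclg2, Mdh2 and Pdhb in SAHA and at Pdha1 in diluent. Among the regulators they were at Esrra, the nuclear receptor that drives oxidative genes, and Mterfd2 in SAHA.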

How the data were processed

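STAT3, H3K4me3 and IgG ChIP-seq libraries, 1 per group, were used as deposited; nothing states whether marrow of several mice was pooled. The submitters' processing notes name BWA as the aligner and mm9 as the build. Regions of each library alone were called with MACS 1.4.0rc2, per the file headers, and these deposited tables give tag counts, a score and a fold enrichment (a ratio to local background, not used for comparisons). The authors' deposited lists against IgG give a score and a gene per region, with calling settings not given in the sources used here; each gene's start came from those lists, and a region counted within 5 kb.

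H3K4me3 tags were compared in 17704 pairs of regions overlapping by at least 1 bp, each library scaled to its filtered tags, with exact conditional binomial (Clopper-Pearson) 95% intervals; the code was tested on simulated data. The call was 1.5-fold. All genes means protein-coding genes with a listed start (14157), or the 10783 of them with a pair. Columns of other samples numbered 0. Promoter windows came from RefSeq (GRCm38.p6), used for names, neighbours and sequences only. Genes named with values were those with the highest and lowest ratios, most tags and widest regions per complex and role, and every gene with STAT3 or past 1.5-fold. Of the genes counted, 1 is not reported here. The genes, lists and rules were chosen with earlier results of these data known. Python 3.11.15, numpy 2.4.6, scipy 1.17.1, pandas 2.3.3 and matplotlib 3.10.9 were used.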

Additional observations from a re-analysis of the deposited data

How the results depend on the processing

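The median H3K4me3 log2 tag ratio of the set stayed between -0.17 (per kb of region) and -0.03 (centred on all genes) under the alternatives. The 1 gene past the fold higher became 0 per kb (all genes, 2.83%), 0 with regions within 1 kb and 4 at a lower fold. These 4 were Ndufa4l2, Cox6b2, Cox4i1 and Cox4nb. The last pair share 1 region, counted for each, and Cox4nb is no respiratory chain gene. The 1 gene lower became 0 per kb (all genes, 1.49%) and 0 at a fold of 2. At that lower fold 2 were lower, Cox7a1 and Cox15. The shares of all genes within 1 kb and at the other folds were not counted, so those counts cannot be compared. Per kb, Ndufa4l2 came to 0.24 and Cox4i1 to -0.31. The 16 genes with STAT3 in SAHA became 8 at a score of at least 40 (all genes, 7.66%), 9 with equal numbers of top regions (9.50%) and 2 with regions called without a control (1.24%). The 5 in diluent became 0 at that score (all genes, 2.34%) and 1 without a control (1.02%). The cause of these moves was not tested, beyond the fewer regions each setting keeps. No paired analysis was possible because each group had 1 library, and for the same reason no replicate could be left out. Called lengths move with depth and threshold, and low-tag genes such as Ndufa4l2 have wide counting intervals.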
